A study of Homo sapiens with 14 samples.

Results

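MLL1-KO1 and MLL1-KO2 are the 2 MLL1 knockout lines of this RNA-Seq series, and they were compared here with each other across all genes of the deposited table. Their libraries were chosen by their labels, which gave 4 of 14 libraries, 2 for each line. All 7 conditions of the series are untreated cultures of MDA-MB-231, an established triple-negative breast cancer (TNBC) cell line, namely parental cells and a pair of lines each for SAP30-KO, SIN3A/3B-DKO, and MLL1-KO. The knockouts were made with CRISPR/Cas9 and sgRNAs against SAP30, both SIN3A and SIN3B, or MLL1, by transfection or lentiviral infection followed by puromycin selection, and several knockout cells were expanded and mixed for a line, so that a line descends from several founder cells. The other lines were not edited at MLL1 by their labels and were used here for the spread between replicates and as a comparison of size.

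MLL1, encoded by KMT2A, is a histone methyltransferase that works in a COMPASS complex with WDR5, RBBP5, ASH2L, and DPY30 and places methyl groups on lysine 4 of histone H3, a mark of active promoters. Its CXXC domain binds DNA that holds unmethylated CpG, and its best known targets are the HOX genes. A pair of lines that lack the same gene differ from each other by whatever was not shared between them, which can include the sgRNA and the founder cells, and RNA levels do not tell these apart.

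Values are TPM, transcript abundances that are scaled for length and add up to the same total in every library. Whole reads could be recovered for all 18519 genes with a value, with 21888587 and 21408474 reads for MLL1-KO1, 18415036 and 19526903 for MLL1-KO2, and 20203707 and 19386389 for parental cells. The median gene differed by 0.07 (log2) between the replicates of MLL1-KO1 and by 0.07 between those of MLL1-KO2, and by 0.18 between the lines. Replicates differed by 2.20 times the variance of read sampling in MLL1-KO1 and 1.70 times in MLL1-KO2, so none was a copy of the other. The labels do not say whether replicates came from separate cultures, and p-values then measure only the spread between these libraries. Of 10 markers of the MDA-MB-231 state, 1 stayed under 1 TPM in all 14 libraries. VIM, another of them, stood between 5741 and 8805 TPM in parental cells and the MLL1-KO lines. Of 12 luminal genes, 3 stayed under 1 TPM in all 14 libraries, namely ESR1, PGR, and FOXA1. The luminal genes together summed to 907 to 949 TPM in parental cells, 457 to 479 TPM in MLL1-KO1, and 288 to 300 TPM in MLL1-KO2. Also under 1 TPM in all 14 libraries were 5 of 10 leukocyte markers, 6 of 10 endothelial markers, and 6 of 10 fibroblast markers. In such bulk samples fewer cells of a kind and less RNA per cell cannot be told apart.

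The targeted gene, listed under its older symbol MLL in the table and lying at 118307171 to 118397547 on chromosome 11 (11q, GRCh37), kept transcript in both lines. KMT2A (MLL) stood at 56.7 and 49.0 TPM in parental cells, 17.4 and 15.8 TPM in MLL1-KO1, and 25.7 and 27.7 TPM in MLL1-KO2. All 4 MLL1-KO libraries were below both parental libraries, and the lines did not overlap. The lines not edited at MLL1 were in part low as well, with MLL from 23 to 35.4 TPM in the 4 SAP30-KO libraries, which span the MLL1-KO2 values, and from 42.9 to 55.7 TPM in the 4 SIN3A/3B-DKO libraries. Against parental, MLL was lower by -1.64 (log2) in MLL1-KO1 and by -0.97 in MLL1-KO2, and both differences were called. Between the lines MLL differed by -0.67 ± 0.15 (SE), with an adjusted p of 0.0036 by limma. It was no longer called, because it fell under 1.5-fold, at -0.57 after quantile normalization and at -0.51 after removal of the GC and length trend, and it was -0.15 (adjusted p = 0.42) after the running median of 51 neighbouring genes was taken out. Of the 22 genes of the MLL family and its complexes, it was the 1 called between the lines, and the others lay between -0.25 for HCFC1 and 0.20 for PAXIP1. The paper checked its MLL1-KO lines by immunoblot. A transcript level does not measure the protein, so these values do not rank the lines by MLL1 protein.

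Between MLL1-KO1 and MLL1-KO2, 1411 of 13540 genes tested (10.4%) were called, at an adjusted p under 0.05 by limma and at least 1.5-fold. There were 968 genes (7.15%) lower in MLL1-KO1 and 443 genes (3.27%) higher, so that 68.6% of the called genes were lower in MLL1-KO1. That split depended on the scaling. It was 56.4% with 686 lower and 531 higher after quantile normalization, and 58.9% with 765 lower and 533 higher after the GC and length trend was removed. Most differences were small, with a median size of 0.81 (log2) among the called genes, while 428 of them reached 2-fold and 65 reached 4-fold. In the same fit the SAP30-KO lines differed from each other in 20 genes (0.148%) and the SIN3A/3B-DKO lines in 302 genes (2.23%). Of the genes called between the MLL1-KO lines, 118 were called between the SIN3A/3B-DKO lines too, which is 8.36% of the former and 39.1% of the latter.

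**Figure D1:**
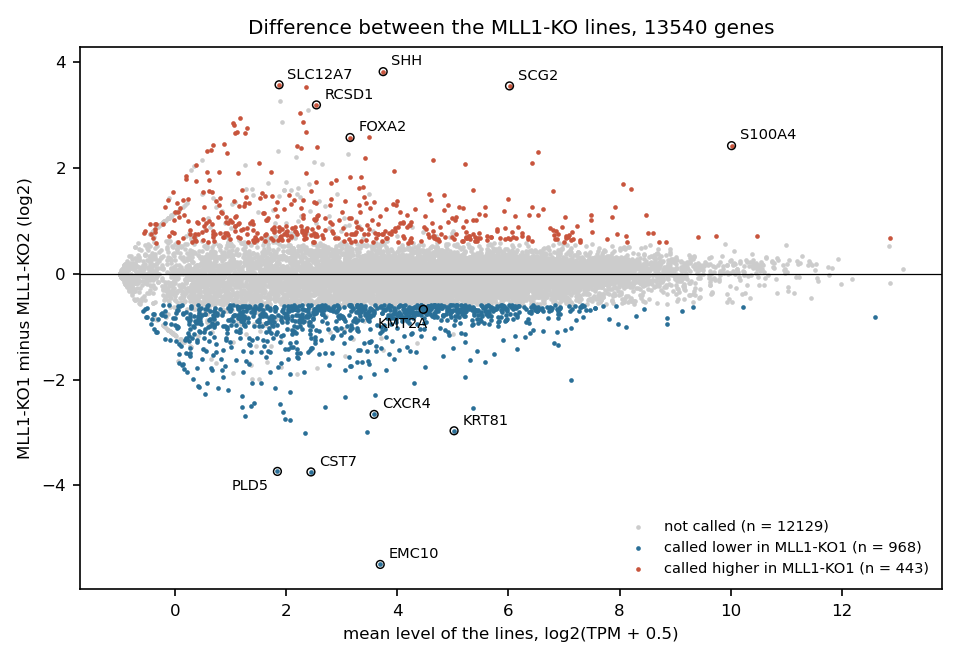
Each point is 1 of 13540 genes, with the mean level of both lines in log2(TPM + 0.5) on the x axis and MLL1-KO1 minus MLL1-KO2 (log2, 2 libraries a line) on the y axis. The 968 genes called lower in MLL1-KO1 are blue and the 443 called higher are red, and EMC10 lies lowest at -5.49 while SHH lies highest among the labelled genes at 3.82.

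EMC10, a subunit of the complex that inserts membrane proteins into the endoplasmic reticulum, had the largest difference. It stood at 32.5 and 30.6 TPM in parental cells and 24.2 and 25.4 TPM in MLL1-KO2, and at 0.060 and 0.061 TPM in MLL1-KO1, where 1 read was counted in each library. MLL1-KO2 was near the parental level and MLL1-KO1 near 0. By summed reads EMC10 was 402-fold lower in MLL1-KO1 (95% exact interval of counting error 111 to 3323), and the adjusted p was 2e-10 by limma. The gene lies at 50979657 to 50994128 on chromosome 19 (GRCh37), and its tested neighbours POLD1 and JOSD2 differed between the lines by 0.06 and -0.10 with adjusted p of 0.54 and 0.58 by limma, and none of the 8 nearest tested neighbours was called. EMC10 was also near 0 in 1 other edited line, SIN3A/3B-DKO1, at 0.174 and 0.182 TPM. The 4 SAP30-KO libraries, at 6.85 to 11.8 TPM, were well below parental too, and SIN3A/3B-DKO2 stood at 24.5 and 23.4 TPM.

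The other genes with the largest differences below MLL1-KO2 fall into several kinds. CXCR4, the receptor for the chemokine CXCL12, stood at 3.49 and 2.17 TPM in MLL1-KO1, 20.2 and 20.1 TPM in MLL1-KO2, and 14.08 and 14.03 TPM in parental cells. MLL1-KO1 was therefore the line apart, 7.11-fold below MLL1-KO2 with a log2 difference of -2.66 ± 0.14 and an adjusted p of 2.0e-07. ADAMTS1, a secreted protease that cuts proteoglycans, had the same order, with 11.3 and 11.7 TPM in MLL1-KO1, 68.6 and 69.9 TPM in MLL1-KO2, and 52.5 and 52.3 TPM in parental cells (-2.54 ± 0.08, adjusted p = 7.9e-09). A low ADAMTS1 level was not particular to MLL1-KO1. The SAP30-KO libraries, at 13.4 to 15.9 TPM, and the SIN3A/3B-DKO libraries, at 21.9 to 26.6 TPM, were also below parental. HVCN1, a voltage-gated proton channel, fell in both lines and further in MLL1-KO1, and stood at 10.96 and 8.97 TPM in parental cells, 6.10 and 6.06 TPM in MLL1-KO2, and 0.541 and 0.618 TPM in MLL1-KO1.

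In other genes of this set it was MLL1-KO2 that departed from parental. ARHGAP30, a GTPase-activating protein, stood at 18.6 and 19.6 TPM in MLL1-KO2, against 1.75 and 2.19 TPM in MLL1-KO1 and 2.67 and 2.55 TPM in parental cells (-2.99 ± 0.16, adjusted p = 1.9e-07). PARM1, a membrane mucin-like protein, stood at 10.1 and 10.9 TPM in MLL1-KO2, against 1.48 and 1.38 TPM in MLL1-KO1 and 1.49 and 2.15 TPM in parental cells. For both genes the parental and MLL1-KO1 libraries lay together and below MLL1-KO2. CST7, PLD5, KRT81, and KDR, which complete the set, moved in opposite directions in the lines and are described below with the others of that kind.

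Among genes higher in MLL1-KO1, 3 stood near the parental level in MLL1-KO2. SHH, the ligand of the hedgehog pathway, stood at 25.9 and 23.1 TPM in MLL1-KO1, 1.22 and 1.32 TPM in MLL1-KO2, and 1.41 and 1.54 TPM in parental cells, and it was listed at no more than 0.736 TPM in the 8 libraries of the lines edited at other genes. SHH was 19.3-fold higher in MLL1-KO1 than in MLL1-KO2 (log2 difference 3.82 ± 0.25, adjusted p = 8.1e-07). SCG2, a secretogranin of neuroendocrine granules, stood at 113.6 and 124.4 TPM in MLL1-KO1, 9.99 and 9.42 TPM in MLL1-KO2, and 11.36 and 11.99 TPM in parental cells (3.55 ± 0.08, adjusted p = 5.1e-10). S100A4, a calcium-binding protein linked to cell motility and metastasis, was the most abundant gene of the set. It stood at 1683 and 1808 TPM in MLL1-KO1, 321 and 330 TPM in MLL1-KO2, and 332 and 377 TPM in parental cells, and at 85.8 to 180 TPM in the 8 libraries of the other edited lines (2.42 ± 0.10, adjusted p = 2.7e-08). In these genes MLL1-KO1 was above all other libraries of the series.

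In RCSD1, CPT1A, FOXA2, and LIPG both lines were below parental, and MLL1-KO2 was the lower. RCSD1, a regulator of actin capping, stood at 62.9 and 63.2 TPM in parental cells, 9.10 and 10.9 TPM in MLL1-KO1, and 0.691 and 0.605 TPM in MLL1-KO2 (3.19 ± 0.08, adjusted p = 6.7e-10). CPT1A, the enzyme that commits long-chain fatty acids to mitochondrial oxidation, stood at 67.9 and 65.1 TPM, 18.5 and 19.0 TPM, and 2.72 and 2.72 TPM in parental cells, MLL1-KO1, and MLL1-KO2 (2.58 ± 0.07, adjusted p = 9.6e-10). FOXA2, a forkhead factor of endoderm, stood at 72.4 and 74.4 TPM, 15.1 and 14.2 TPM, and 1.70 and 2.45 TPM in the same order. These genes form a ladder with parental at the top, MLL1-KO1 in the middle, and MLL1-KO2 at the bottom. LIPG, endothelial lipase, had the same order at 13.2 and 13.0 TPM, 6.61 and 7.85 TPM, and 1.03 and 0.874 TPM.

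**Figure D2:**
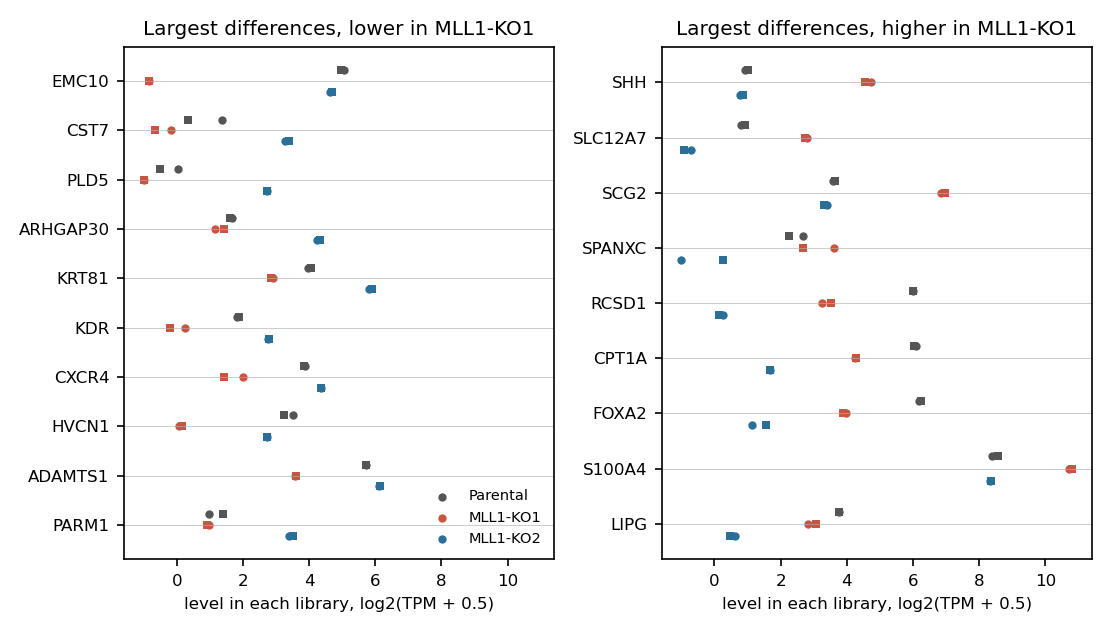
Levels of the genes with the largest differences in each of 6 libraries, in log2(TPM + 0.5), with parental in grey, MLL1-KO1 in red, and MLL1-KO2 in blue, circles for replicate 1 and squares for replicate 2. The 4 microRNA hairpins with few reads and a gene not reported here are left out, and replicates lie close together while the place of parental changes from gene to gene.

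The remaining genes of these sets rest on few reads. SPANXC, a cancer-testis gene of a family of near-identical copies on Xq whose reads may be split among them, was counted at 39 and 19 reads in the MLL1-KO1 libraries against 0 and 2 for MLL1-KO2. The hairpins MIR4784, MIR647, MIR4746, and MIR4749 had at most 7 reads in any library of either line, and such short entries gain a high TPM from 1 read. MIR4784, MIR647, and MIR4749 lie on the strand of MZT2A, UCKL1, and PTOV1, and MIR4746 lies opposite UBXN6, so their reads cannot be told from those of the longer transcript. MIR4784 was lower in MLL1-KO1 by -2.77 and lost its call without MLL1-KO1 replicate 2 (-1.73) and without MLL1-KO2 replicate 1 (-2.53). MIR647 was higher by 3.04 and lost its call without MLL1-KO1 replicate 1 (2.82) or 2 (3.26) and without MLL1-KO2 replicate 1 (2.06). MIR4746, at 2.87, lost it without MLL1-KO1 replicate 1 (2.73) or 2 (3.01) and without MLL1-KO2 replicate 2 (1.68), and MIR4749, at 2.69, without MLL1-KO1 replicate 1 (1.96), without MLL1-KO2 replicate 1 (1.45), and, at 2.69, without either parental library.

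Because MLL1 binds unmethylated CpG, the promoters of 4 genes with large and well-counted differences are shown to give their CpG content, as the 250 bases before the annotated start in RefSeq (GRCh38.p14), 5′ to 3′, with CpG in capitals.
EMC10, chr19:50476257-50476506, plus strand: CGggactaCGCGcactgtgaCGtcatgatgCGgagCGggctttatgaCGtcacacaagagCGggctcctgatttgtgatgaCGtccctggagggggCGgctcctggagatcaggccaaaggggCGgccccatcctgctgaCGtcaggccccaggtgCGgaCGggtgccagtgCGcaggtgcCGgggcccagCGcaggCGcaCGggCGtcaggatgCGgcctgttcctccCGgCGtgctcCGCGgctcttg
RCSD1, chr1:167629982-167630231, plus strand: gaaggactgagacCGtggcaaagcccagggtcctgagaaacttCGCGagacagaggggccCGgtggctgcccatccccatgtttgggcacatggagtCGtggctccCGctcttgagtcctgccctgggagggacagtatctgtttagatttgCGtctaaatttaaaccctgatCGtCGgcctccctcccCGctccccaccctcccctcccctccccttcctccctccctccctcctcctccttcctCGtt
SHH, chr7:155812464-155812713, minus strand: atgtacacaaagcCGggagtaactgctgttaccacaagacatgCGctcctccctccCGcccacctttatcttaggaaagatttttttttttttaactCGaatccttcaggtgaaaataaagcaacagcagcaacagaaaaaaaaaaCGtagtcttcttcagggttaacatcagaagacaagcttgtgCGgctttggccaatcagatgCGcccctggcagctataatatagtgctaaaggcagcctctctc
S100A4, chr1:153545807-153546056, minus strand: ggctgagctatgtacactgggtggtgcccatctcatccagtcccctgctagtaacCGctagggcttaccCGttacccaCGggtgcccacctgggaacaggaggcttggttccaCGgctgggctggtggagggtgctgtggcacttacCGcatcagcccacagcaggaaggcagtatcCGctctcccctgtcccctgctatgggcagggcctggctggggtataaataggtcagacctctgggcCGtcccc
EMC10, which was lost in MLL1-KO1, has 25 CpG in this window, and RCSD1, which was nearly lost in MLL1-KO2, has 11. SHH and S100A4, which rose in MLL1-KO1, have 7 each. Promoters matched 10348 of the 13540 tested genes, with a median of 21 CpG. The 736 matched genes lower in MLL1-KO1 had a median of 20 and the 315 higher genes one of 21. Genes with at most 5 CpG made up 8.82% of all matched genes, 16.3% of the lower, and 16.2% of the higher genes. These counts describe the sequence and say nothing of binding or methylation in these cells.

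The parental level was not between the lines for most called genes. By mean level, parental lay above both lines for 521 of the 1411 called genes (36.9%), below both for 344 (24.4%), and between them for 546 (38.7%), of which 295 were nearer to MLL1-KO1 and 251 nearer to MLL1-KO2. The place differed with the direction. Of the 443 genes higher in MLL1-KO1, parental was above both lines for 231 (52.1%) and below both for 65 (14.7%), whereas among the 968 genes lower in MLL1-KO1 it was above both for 290 (30.0%) and below both for 279 (28.8%). Every call against parental uses the same 2 parental libraries, so the counts for the lines are not independent of each other.

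Calls against parental give the same picture by line. MLL1-KO1 was lower than parental for 16.3% and higher for 6.89% of the genes tested, and MLL1-KO2 was lower for 14.9% and higher for 10.2%. Of the 968 genes lower in MLL1-KO1, 282 were called higher than parental in MLL1-KO2 alone, 240 were called lower than parental in MLL1-KO1 alone, 136 were lower in both, 104 were higher in both, and 186 were called in neither. Of the 443 genes higher in MLL1-KO1, 153 were lower than parental in both lines, 121 were lower in MLL1-KO2 alone, 86 were higher in MLL1-KO1 alone, 14 were higher in both, and 62 were called in neither. A gene called against parental in 1 line alone is not thereby different between the lines, but the genes counted here passed the test between the lines as well. Of the 1411 genes, 289 were called lower and 118 higher than parental in both lines, and these differed in size.

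**Figure D3:**
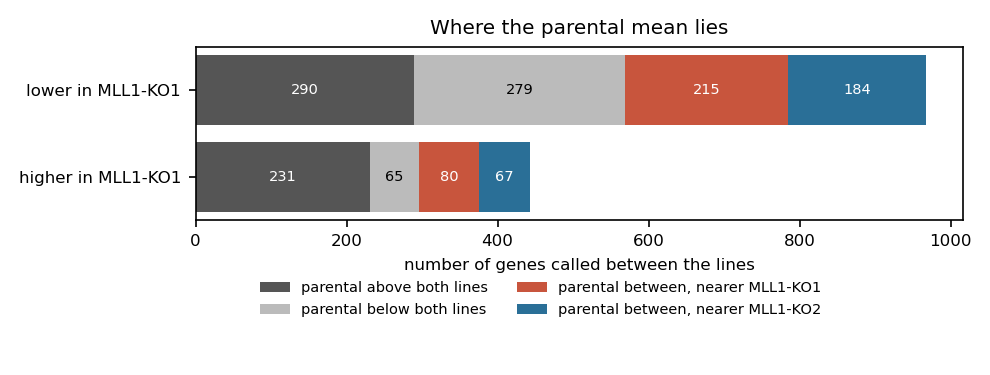
Number of genes called between the lines, by direction (rows) and by where the parental mean lies (colors). Parental lies above both lines for 231 of 443 genes higher in MLL1-KO1 and for 290 of 968 genes lower in it.

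For 27 genes the lines were called in opposite directions against parental, 20 with MLL1-KO1 below and MLL1-KO2 above parental and 7 the other way. KRT81, a hair keratin, stood at 15.2 and 16.2 TPM in parental cells, 7.06 and 6.65 TPM in MLL1-KO1, and 55.2 and 59.0 TPM in MLL1-KO2, a difference of -2.97 ± 0.07 between the lines (adjusted p = 6.2e-10). KDR, the main signaling receptor for VEGF on endothelial cells, stood at 3.01 and 3.18 TPM, 0.689 and 0.370 TPM, and 6.22 and 6.44 TPM in the same order (-2.75 ± 0.16, adjusted p = 3.3e-07). SLC12A7, a potassium-chloride cotransporter, went the other way, with a mean of 1.33 TPM in parental cells, 6.38 and 6.10 TPM in MLL1-KO1, and 0.111 and 0.026 TPM in MLL1-KO2. By summed reads SLC12A7 was 93.9-fold higher in MLL1-KO1 (95% exact interval 40 to 290).

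PLD5, a phospholipase D family member without known catalytic activity, had 0 reads in both MLL1-KO1 libraries, 13 and 5 reads in the parental libraries, and 143 and 153 in MLL1-KO2, which makes it at least 55.7-fold lower in MLL1-KO1 when 3 reads per library are taken as the limit. CST7, a cystatin that inhibits lysosomal cathepsins, had 3 and 1 reads for MLL1-KO1, 14 and 5 for parental cells, and 58 and 67 for MLL1-KO2, and was 35.7-fold lower in MLL1-KO1 by summed reads (13.6 to 133). CDH18, a cadherin of neurons, had 88 and 100 reads for MLL1-KO1, 20 and 12 for parental cells, and 5 and 1 for MLL1-KO2, and was listed at 0 in the 8 libraries of the other edited lines. In these 3 genes the parental libraries lie between the lines at few reads, so the place of parental is less certain than the difference between the lines.

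The study followed angiogenesis and cell motility through PDGFB, PDGFD, CLDN1, RDX, ADM2, and NOTCH3, genes chosen on these cells. It reported them by RT-qPCR for SAP30-KO and SIN3A/3B-DKO cells, and for MLL1-KO cells it named PDGFD, CLDN1, RDX, and ADM2. Here 3 of the 6 were called between the lines. Against parental, 5 of the 6 were called lower in each line, and PDGFB was called higher in MLL1-KO1. PDGFD, a platelet-derived growth factor, stood at 8.32 and 8.15 TPM in parental cells, 1.08 and 1.15 TPM in MLL1-KO1, and 2.255 and 2.998 TPM in MLL1-KO2 (-0.94 ± 0.17, adjusted p = 0.0011). RDX, the actin-membrane linker radixin, stood at 140 and 137 TPM, 45.04 and 48.79 TPM, and 71.9 and 72.1 TPM in the same order (-0.61 ± 0.07, adjusted p = 3.3e-05). RDX lost its call without MLL1-KO1 replicate 1 (-0.56), after quantile normalization (-0.56), and after median ratio scaling (-0.57). Both genes fell in both lines and lie on distal 11q, and once the neighbours' running median was taken out PDGFD differed by -0.40 and RDX by -0.10, which were not called. PDGFB stood at 1.62 and 1.83 TPM in parental cells, 3.15 and 3.01 TPM in MLL1-KO1, and 1.68 and 1.82 TPM in MLL1-KO2 (0.67 ± 0.20, adjusted p = 0.022), and its call was lost without any 1 of the 4 MLL1-KO libraries, at 0.62 to 0.72, and with a pseudocount of 0.1 (0.78) or 1 (0.57). CLDN1, the tight junction protein, ADM2, a peptide of the adrenomedullin family, and NOTCH3 fell against parental in both lines. Their differences between the lines were 0.11, 0.27, and 0.00, with adjusted p of 0.69, 0.37, and 1.0 by limma. In the 4 MLL1-KO libraries CLDN1 stood at 0.180 to 0.462 TPM, ADM2 at 0.518 to 0.932 TPM, and NOTCH3 at 0.086 to 0.311 TPM. The log2(TPM + 0.5) scale understates differences at such levels, so these values do not show that the lines agree.

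Of 25 genes of angiogenic factors and receptors tested, 7 were lower and 3 higher in MLL1-KO1, 40% in all, with a median difference of -0.25 against -0.05 over all genes. Of the 7 lower genes, 4 lie in the chromosome blocks described below. ENG, the endothelial TGF-beta coreceptor, stood at 65.8 and 65.7 TPM in parental cells, 53.4 and 51.4 TPM in MLL1-KO1, and 115 and 113 TPM in MLL1-KO2 (-1.11 ± 0.12, adjusted p = 3.2e-05). VEGFC, a lymphangiogenic growth factor, stood at 63.9 and 58.5 TPM, 74.3 and 74.3 TPM, and 126 and 118 TPM in the same order (-0.71 ± 0.05, adjusted p = 1.3e-06). For both, the higher level of MLL1-KO2 against parental was called and the value of MLL1-KO1 was not. ANGPTL4, a secreted inhibitor of lipoprotein lipase, went the other way at 10.1 and 9.53 TPM, 3.22 and 4.06 TPM, and 1.55 and 1.17 TPM (1.15 ± 0.12, adjusted p = 3.4e-05), below parental in both lines. Of the 4 endothelial markers tested, KDR and TIE1 were lower in MLL1-KO1, and ESAM (0.19) and PECAM1 were not called. VWF, CDH5, ERG, CLDN5, EMCN, and TEK stayed under 1 TPM in all libraries. The summed level of the 10 endothelial markers was 302 to 313 TPM in parental cells, 82.3 to 83.6 TPM in MLL1-KO1, and 77.4 to 84.7 TPM in MLL1-KO2. ESAM made up nearly all of this sum, at 307 and 296 TPM in parental cells, 79.8 and 78.9 TPM in MLL1-KO1, and 66.1 and 72.9 TPM in MLL1-KO2. KDR and TIE1 were called higher than parental in MLL1-KO2, and PECAM1 was called higher than parental in both lines.

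A larger share of matrix proteases was called than the 10.4% over all genes. Of 23 metalloproteinases, ADAMTS proteases, and TIMP inhibitors tested, 9 were lower and 4 higher in MLL1-KO1 (56.5%), with a median difference of -0.42. MMP1, interstitial collagenase, stood at 8.80 and 9.03 TPM in parental cells, 6.39 and 7.82 TPM in MLL1-KO1, and 30.0 and 32.1 TPM in MLL1-KO2 (-2.06 ± 0.11, adjusted p = 2.7e-07). MMP9, a gelatinase, was listed at 0 in both parental libraries, 0.158 and 0.213 TPM in MLL1-KO1, and 3.79 and 3.10 TPM in MLL1-KO2, and MMP3, stromelysin, at 0.076 and 0, 0.604 and 0.409, and 3.47 and 3.88 TPM in the same order. Of the 3 conditions these genes were highest in MLL1-KO2. MMP14, the membrane-bound collagenase, was above parental in both lines, at 425 and 417 TPM, 940 and 939 TPM, and 1447 and 1448 TPM (-0.62 ± 0.04, adjusted p = 1.2e-06).

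The inhibitor TIMP3 was the reverse of these proteases. It stood at 819 and 826 TPM in parental cells, 393 and 427 TPM in MLL1-KO1, and 127 and 124 TPM in MLL1-KO2 (1.71 ± 0.04, adjusted p = 6.7e-10). ADAMTS12 followed the same ladder, at 56.0 and 55.6 TPM, 20.6 and 22.9 TPM, and 8.64 and 8.54 TPM (1.29 ± 0.06, adjusted p = 9.3e-08). MMP2, another gelatinase, was listed at 0 in both MLL1-KO2 libraries, 0.511 and 0.421 TPM in MLL1-KO1, and 1.63 and 1.97 TPM in parental cells. The list thus held members that stood highest in parental cells and members that stood highest in MLL1-KO2.

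Among 20 collagen genes tested, MLL1-KO1 was lower for 4 and higher for 2 (30.0%), and the median difference was 0.03. COL6A3, a chain of microfibrillar collagen VI, stood at 7.37 and 7.51 TPM in parental cells, 85.6 and 81.3 TPM in MLL1-KO1, and 35.5 and 36.8 TPM in MLL1-KO2 (1.19 ± 0.08, adjusted p = 1.3e-06). COL17A1, a hemidesmosome collagen, had the other order of the lines, at 4.39 and 4.45 TPM, 12.6 and 13.2 TPM, and 23.1 and 22.6 TPM (-0.80 ± 0.10, adjusted p = 0.00012). Both collagens rose in both lines, each further in a different one. Of 21 integrin and laminin genes, ITGA10, a collagen-binding integrin, was lower in MLL1-KO1 (9.51 and 10.0 TPM against 32.9 and 36.2 TPM in MLL1-KO2) and LAMA4, a laminin chain of vessel walls, was higher (3.52 and 3.90 TPM against 1.15 and 0.975 TPM), and no other member was called (9.52%).

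Called members of the epithelial state list had 1 direction. Of 21 epithelial state genes tested, 7 were higher in MLL1-KO1 and 0 lower (33.3%), with a median difference of 0.24. Under the alternatives that kept the 1.5-fold minimum, 6 to 10 were higher and at most 1 was lower. CLDN7, a claudin of tight junctions, stood at 32.1 and 29.3 TPM in parental cells, 13.0 and 13.8 TPM in MLL1-KO1, and 5.92 and 5.45 TPM in MLL1-KO2 (1.17 ± 0.08, adjusted p = 1.9e-06). OCLN, occludin, stood at 8.21 and 7.92 TPM, 2.14 and 2.16 TPM, and 0.831 and 0.804 TPM (1.01 ± 0.09, adjusted p = 7.1e-06), and SPINT1, an inhibitor of membrane proteases of epithelium, at 6.57 and 7.48 TPM, 1.70 and 2.03 TPM, and 0.234 and 0.387 TPM (1.55 ± 0.17, adjusted p = 4.2e-05). These 3 had fallen in both lines, further in MLL1-KO2, and the whole list had a median against parental of -1.10 for MLL1-KO1 and -1.67 for MLL1-KO2. EHF, an epithelial ETS factor, was different, since it stood at the parental level in MLL1-KO2 (21.5 and 20.7 TPM against 22.4 and 22.3 TPM) and above it in MLL1-KO1 (49.8 and 51.6 TPM). PKP3, a desmosome plaque protein at the other end of the list, was not called, at -0.37. The list of tight junction genes, which shares members such as CLDN7, had both directions. Of 14 tested, 4 were higher and 2 lower in MLL1-KO1 (42.9%). The lower genes were CLDN23 (-1.04, adjusted p = 0.00025 by limma) and F11R (-0.68, adjusted p = 9.2e-05 by limma).

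The keratins of simple epithelia were higher in MLL1-KO1 than in MLL1-KO2, as the called epithelial state genes were. KRT19 stood at 432 and 444 TPM in parental cells, 238 and 247 TPM in MLL1-KO1, and 109 and 116 TPM in MLL1-KO2 (1.10 ± 0.07, adjusted p = 5.8e-07). KRT8 stood at 412 and 419 TPM, 197 and 196 TPM, and 105 and 105 TPM (0.90 ± 0.03, adjusted p = 7.9e-09), and its partner KRT18 at 746 and 777 TPM, 551 and 547 TPM, and 363 and 363 TPM (0.60 ± 0.03, adjusted p = 7.3e-08), which fell under 1.5-fold after quantile normalization (0.56). KRT7 was above parental in MLL1-KO1 at 483 and 490 TPM and stood at 229 and 221 TPM in MLL1-KO2, against 273 and 269 TPM in parental cells. Over the list of 10 keratins tested, 4 were higher and 3 lower, the hair keratin KRT81 among the latter. Of the luminal breast genes, MLPH, an adaptor of melanosome transport, stood at 77.9 and 81.3 TPM in parental cells, 61.1 and 61.8 TPM in MLL1-KO1, and 20.6 and 19.6 TPM in MLL1-KO2, and SPDEF, an ETS factor of luminal cells, at 21.2 and 18.9 TPM, 4.17 and 3.71 TPM, and 1.70 and 2.11 TPM. In 9 luminal genes tested, 3 were higher in MLL1-KO1 and 0 lower, and their median difference was 0.00.

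The 18 mesenchymal genes tested did not mirror this, with 4 lower and 1 higher in MLL1-KO1 (27.8%) and a median of -0.05. TNC, the matrix protein tenascin C, rose in both lines, at 18.8 and 17.8 TPM in parental cells, 240 and 219 TPM in MLL1-KO1, and 390 and 405 TPM in MLL1-KO2 (-0.79 ± 0.07, adjusted p = 1.1e-05). CDH11, a mesenchymal cadherin, stood at 35.2 and 36.6 TPM, 38.9 and 41.1 TPM, and 64.4 and 63.6 TPM (-0.67 ± 0.04, adjusted p = 5.2e-07). The 1 gene higher in MLL1-KO1 was S100A4. VIM, which encodes vimentin, was not called, at 0.53. Of 21 smooth muscle and contractile genes 2 were called, TAGLN, an actin-binding protein on distal 11q, and MYH10, a nonmuscle myosin that had fallen from 56.7 and 52.3 TPM in parental cells to 0.253 and 0.128 TPM in MLL1-KO1 and 0.989 and 1.26 TPM in MLL1-KO2.

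In the BMP and TGF-beta pathways, 3 of 40 genes tested were lower and 6 higher in MLL1-KO1 (22.5%), with a median of -0.14. Among ligands, INHBB, an activin subunit, stood at 73.9 and 70.7 TPM in parental cells, 40.8 and 39.5 TPM in MLL1-KO1, and 8.39 and 8.87 TPM in MLL1-KO2 (2.16 ± 0.04, adjusted p = 5.0e-10). BMP2 stood at 0.265 and 0.544 TPM, 17.1 and 20.4 TPM, and 40.8 and 40.7 TPM (-1.10 ± 0.17, adjusted p = 0.00040), and was therefore above parental in both lines. Among antagonists, FST, the activin-binding protein follistatin, stood at 136 and 131 TPM, 27.8 and 28.8 TPM, and 15.97 and 14.40 TPM (0.88 ± 0.07, adjusted p = 6.1e-06). SMAD6, an inhibitory SMAD, was near the parental level in MLL1-KO1 (15.6 and 14.7 TPM against 16.1 and 16.9 TPM) and at 6.69 and 7.81 TPM in MLL1-KO2.

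Most interferon-stimulated genes that were called were lower in MLL1-KO1. Of 54 tested, 14 were lower and 2 higher (29.6%), the median was -0.32, and 41 members were below 0. IFITM1, a membrane protein that blocks virus entry, stood at 63.2 and 57.8 TPM in parental cells, 5.30 and 5.91 TPM in MLL1-KO1, and 19.6 and 22.5 TPM in MLL1-KO2 (-1.82 ± 0.09, adjusted p = 1.1e-07). IRF7, the factor that amplifies interferon signaling, stood at 8.26 and 7.41 TPM, 4.76 and 3.20 TPM, and 12.02 and 13.15 TPM (-1.57 ± 0.14, adjusted p = 1.0e-05), on opposite sides of parental. OAS1, a sensor of double-stranded RNA, was the reverse, at 15.9 and 15.4 TPM, 2.775 and 2.504 TPM, and 0.817 and 0.770 TPM (1.28 ± 0.08, adjusted p = 5.1e-07), and XAF1, a proapoptotic protein, stood at 5.41 and 5.00 TPM, 5.42 and 5.67 TPM, and 1.75 and 2.11 TPM. Against parental, MLL1-KO1 had 18 members lower and 1 higher with a median of -0.44, and MLL1-KO2 had 14 lower and 10 higher with a median of -0.16. Between 10 and 15 members were lower under the alternatives that kept the 1.5-fold minimum.

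Cytokines and NF-kappaB genes were mixed. Of 24 cytokine and chemokine genes tested, MLL1-KO1 was lower for 2 and higher for 4 (25%). IL1B stood at 2.135 and 2.002 TPM in parental cells, 13.8 and 20.3 TPM in MLL1-KO1, and 3.35 and 3.25 TPM in MLL1-KO2 (2.18 ± 0.27, adjusted p = 8.0e-05), whereas IL24, a cytokine of the IL-10 family, stood at 6.68 and 4.69 TPM, 7.50 and 6.67 TPM, and 22.7 and 22.7 TPM (-1.62 ± 0.17, adjusted p = 3.5e-05). IL1B was therefore raised over parental in MLL1-KO1 and IL24 in MLL1-KO2. Of 26 NF-kappaB genes, 3 were lower and 1 higher (15.4%). ICAM1, an adhesion molecule for leukocytes, stood at 30.3 and 29.7 TPM, 5.63 and 6.37 TPM, and 15.9 and 19.0 TPM (-1.46 ± 0.10, adjusted p = 1.2e-06). None of the 20 antigen presentation genes tested was called by limma.

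Among signaling receptors, LRP5, a WNT coreceptor, stood at 174 and 165 TPM in parental cells, 42.4 and 41.1 TPM in MLL1-KO1, and 14.6 and 14.5 TPM in MLL1-KO2 (1.49 ± 0.04, adjusted p = 4.5e-09), and ROR1, a receptor for WNT5A, at 32.8 and 29.2 TPM, 14.6 and 15.3 TPM, and 4.78 and 5.53 TPM (1.46 ± 0.08, adjusted p = 3.5e-07). WNT5A itself was lower in MLL1-KO1, at 0.275 and 0.199 TPM against 0.898 and 1.31 TPM in MLL1-KO2 and 2.92 and 2.54 TPM in parental cells. LGR6, a receptor for R-spondins, was above parental in both lines, at 0.726 and 0.863 TPM, 18.3 and 16.5 TPM, and 34.5 and 37.1 TPM. Over 30 WNT genes tested, 5 were lower and 3 higher (26.7%).

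Of 21 Notch genes 6 were lower and 4 higher (47.6%), and 4 of the 6 lie in the chromosome blocks described below. HES4, a Notch target, stood at 8.16 and 8.79 TPM in parental cells, 7.43 and 7.66 TPM in MLL1-KO1, and 1.99 and 3.48 TPM in MLL1-KO2 (1.35 ± 0.19, adjusted p = 0.00020). MFNG, which modifies Notch with sugars, stood at 0.326 and 0.401 TPM, 1.78 and 2.16 TPM, and 0.484 and 0.521 TPM. Of 13 genes of the EGFR family, 3 were lower in MLL1-KO1 and 0 higher (23.1%). NRG2, a ligand of ERBB receptors, stood at 1.77 and 1.75 TPM, 0.766 and 1.09 TPM, and 4.17 and 5.11 TPM (-1.85 ± 0.19, adjusted p = 2.5e-05), on opposite sides of parental. Of 39 semaphorin, plexin, ephrin, and Eph genes, 7 were lower and 5 higher (30.8%). SEMA4D stood at 9.83 and 9.06 TPM, 7.93 and 7.81 TPM, and 15.3 and 16.6 TPM, and SEMA6B at 21.0 and 21.1 TPM, 16.3 and 17.7 TPM, and 7.75 and 7.59 TPM.

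**Figure D4:**
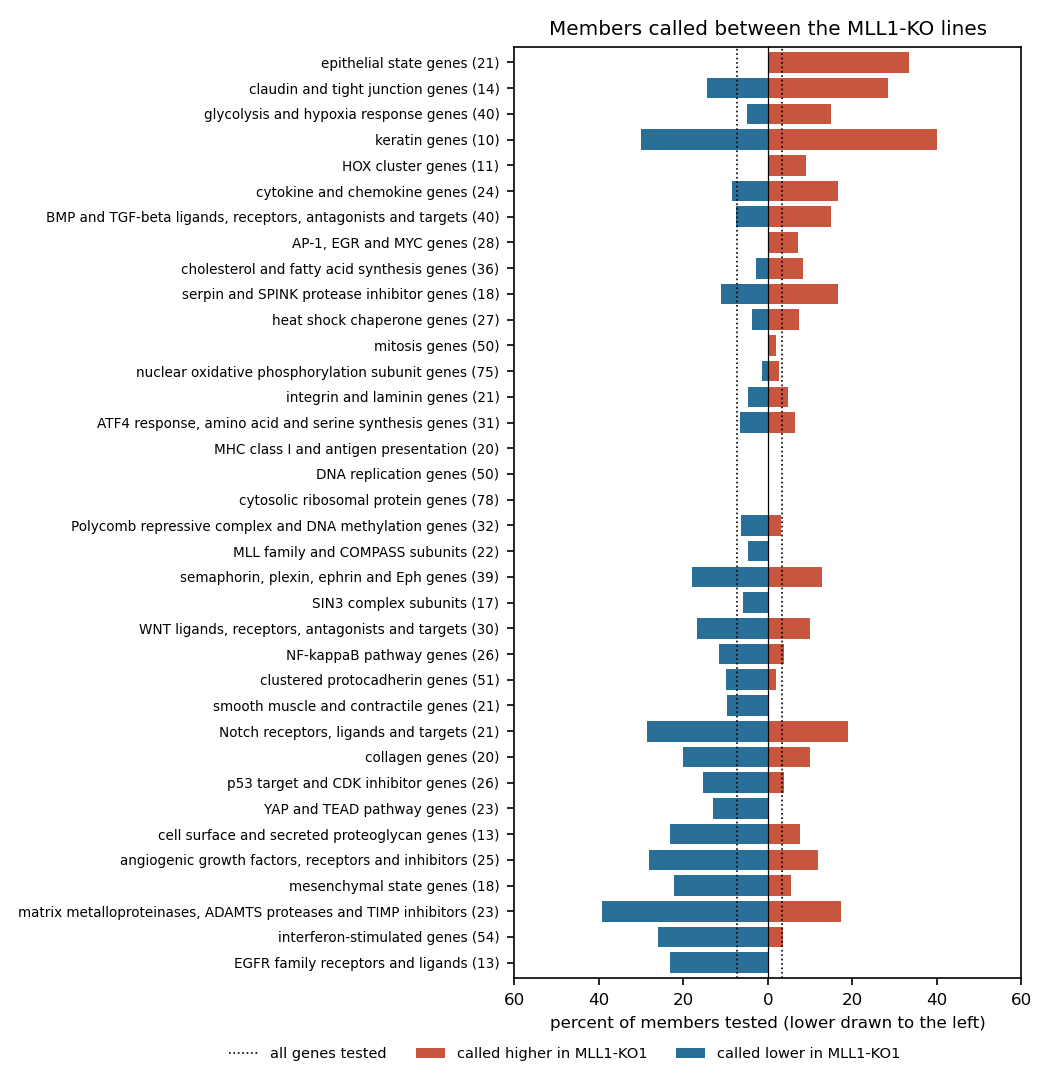
Percent of tested members of each gene list called lower (left, blue) and higher (right, red) in MLL1-KO1, for lists with 10 or more members tested (number in brackets). Dotted lines give the shares over all 13540 genes, 7.15% lower and 3.27% higher, and protease, Notch, and keratin genes reach far past them while replication, ribosomal protein, and antigen presentation genes have no called member.

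Replication, mitosis, ribosomal protein, and oxidative phosphorylation genes had shares called of 0 to 4%, beside 10.4% over all genes, and that difference was not tested. None of 50 DNA replication genes, 78 cytosolic ribosomal protein genes, or 8 MEIS and PBX genes tested was called by limma, and 1 of 50 mitosis genes was, NCAPD2, a condensin subunit on 12p (0.74 ± 0.03, adjusted p = 7.2e-08). The medians were not all at 0. Ribosomal protein genes had a median of 0.18 with 72 of 78 above 0, mitosis genes a median of 0.23 with 42 of 50 above 0, and cholesterol and fatty acid genes a median of 0.22 with 31 of 36 above 0, of which 3 were called higher and 1 lower (11.1%). CYP51A1, a sterol demethylase, stood at 184 and 173 TPM in parental cells, 127 and 127 TPM in MLL1-KO1, and 59.6 and 56.8 TPM in MLL1-KO2 (1.12 ± 0.04, adjusted p = 3.3e-08). Of 75 oxidative phosphorylation genes 3 were called (4%), namely NDUFC2, NDUFA9, and NDUFA10, subunits of complex I, and all lie in the blocks below.

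Of 40 glycolysis and hypoxia genes, MLL1-KO1 was lower for 2 and higher for 6 (20%). CA9, the hypoxia-induced carbonic anhydrase, stood at 1.43 and 0.919 TPM in parental cells, 9.63 and 12.3 TPM in MLL1-KO1, and 2.37 and 3.40 TPM in MLL1-KO2 (1.77 ± 0.21, adjusted p = 6.9e-05). GAPDH, often used as a reference gene, stood at 4930 and 4880 TPM, 9161 and 9090 TPM, and 5807 and 5683 TPM (0.67 ± 0.03, adjusted p = 8.2e-08), and TPI1, its neighbour in the pathway, at 522 and 541 TPM, 1048 and 1070 TPM, and 655 and 631 TPM. GAPDH, TPI1, and the enolase ENO2 lie on 12p, in a block that was higher in MLL1-KO1, and with the running median removed TPI1 (0.20) and ENO2 (0.16) were not called. In amino acid metabolism SLC1A4, a neutral amino acid transporter, stood at 12.5 and 12.7 TPM, 4.005 and 4.404 TPM, and 11.4 and 10.9 TPM (-1.31 ± 0.07, adjusted p = 2.9e-07).

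Among chromatin genes, 1 of 11 HOX genes tested was called (9.09%), HOXB9, which fell from 19.4 and 18.5 TPM in parental cells to 6.86 and 7.24 TPM in MLL1-KO1 and 2.73 and 3.66 TPM in MLL1-KO2 (1.04 ± 0.14, adjusted p = 0.00019). Several HOX genes of the list were not analysed here. Of 32 Polycomb and DNA methylation genes, 2 were lower and 1 higher (9.38%), and SUZ12, a core subunit of Polycomb repressive complex 2, stood at 77.6 and 74.4 TPM, 64.3 and 62.3 TPM, and 38.9 and 38.5 TPM (0.70 ± 0.08, adjusted p = 6.5e-05). The CDK inhibitors CDKN1A and CDKN1C were above parental in both lines and higher in MLL1-KO2, CDKN1A at 36.8 and 39.0 TPM, 90.9 and 88.9 TPM, and 154 and 152 TPM (-0.76 ± 0.05, adjusted p = 5.9e-07).

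The share of genes called varied among chromosome arms. Positions in GRCh37 were found for 13259 of the 13540 genes tested (97.9%). On 12p 37.4% of the tested genes were called, on 4p 37.3%, on 4q 26.3%, and on 11q 23.6%, against 10.4% over all genes. Runs of at least 20 genes whose running median over 51 genes differed by 0.25 or more between the lines formed 8 blocks, which held 8.42% of the tested genes with a position and 386 (27.8%) of the called ones. Outside them 8.25% of 12142 genes were called, 666 lower and 336 higher. The blocks were found from these differences, so their medians describe them and test nothing.

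The largest block was the whole of chromosome 4, with 496 tested genes, 144 lower and 4 higher in MLL1-KO1, and a median of -0.45. The lines lay on opposite sides of parental there, with medians of -0.22 in MLL1-KO1 and 0.22 in MLL1-KO2, and 92.3% of the genes were below 0 between the lines. KDR, PARM1, PDGFC, and VEGFC lie on this chromosome. On 4p the 4 lines edited at other genes were also above parental, with medians of 0.40, 0.37, 0.29, and 0.35, near the 0.27 of MLL1-KO2, while MLL1-KO1 was at -0.20. On 4q these 4 lines had medians between -0.19 and -0.09.

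Distal 11q, from PRKRIR to GLB1L2 (76060942 to 134248235), held 218 tested genes, 99 lower and 1 higher in MLL1-KO1, with a median of -0.55. This block was below parental in both lines, at -0.88 in MLL1-KO1 and -0.35 in MLL1-KO2, and in the SAP30-KO lines at -0.72 and -0.76 and the SIN3A/3B-DKO lines at -0.24 and -0.21. The 25 tested genes before it had a median of -0.01. KMT2A itself, PDGFD, RDX, TAGLN, YAP1, BIRC2, and the MMP1 and MMP3 genes lie in it. YAP1, the transcriptional coactivator of the Hippo pathway, stood at 138 and 130 TPM in parental cells, 75.2 and 75.2 TPM in MLL1-KO1, and 117 and 121 TPM in MLL1-KO2, and its difference fell from -0.66 to -0.16 with the running median removed. All 3 called genes of the YAP list lie in blocks.

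The end of 2q and most of 12p were each shifted in 1 line. From HJURP to the last tested gene of 2q (234742062 to 243072958), 30 of 44 tested genes were higher in MLL1-KO1 and 0 lower, with a median of 0.89. MLL1-KO1 was at the parental level there (0.03) and MLL1-KO2 below it (-0.88). GPC1, a glypican, and NDUFA10 lie in it, GPC1 at 26.9 and 27.8 TPM in parental cells, 15.6 and 15.5 TPM in MLL1-KO1, and 6.57 and 6.04 TPM in MLL1-KO2. With the running median removed neither GPC1 (0.50) nor NDUFA10 (0.39) was called. On 12p, from the first tested gene to ARNTL2 (73725 to 27578222), 59 of 151 genes were higher and 1 lower, with a median of 0.49, and here MLL1-KO1 was above parental (0.42) and MLL1-KO2 near it (-0.08). The 4 other edited lines had medians between -0.04 and 0.05 on the 12p block and between 0.01 and 0.03 on the 2q block.

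The other 4 blocks were smaller. At the end of 17q, from SYNGR2 to METRNL, 20 of 78 genes were lower in MLL1-KO1 and 0 higher, with a median of -0.43, MLL1-KO1 being at -0.06 and MLL1-KO2 at 0.41 against parental. On 6p, from NUP153 to ZNF165, 14 of 65 were lower and 1 higher, at -0.43 and -0.14 against parental. On 19q, from POU2F2 to CADM4, 6 of 24 were lower, and on 5q, from PCDHB6 to KIAA0141, 5 of 41 were lower and 2 higher. The 5q block holds clustered protocadherins, which are adhesion proteins of neurons that share distal enhancers and are alike in sequence. Of 51 protocadherins tested, 33 lie in blocks, and 5 were lower and 1 higher (11.8%), near the 10.4% over all genes. Their median was -0.43, and it ranged from -0.48 to -0.015 under the alternatives.

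DNA copy number was not measured in these samples, and whether the blocks follow it was not tested. With the running median over 51 neighbours removed in every library, the test called 644 genes lower and 408 higher for MLL1-KO1 among the 13259 with a position, against 957 and 434 with nothing removed.

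**Figure D5:**
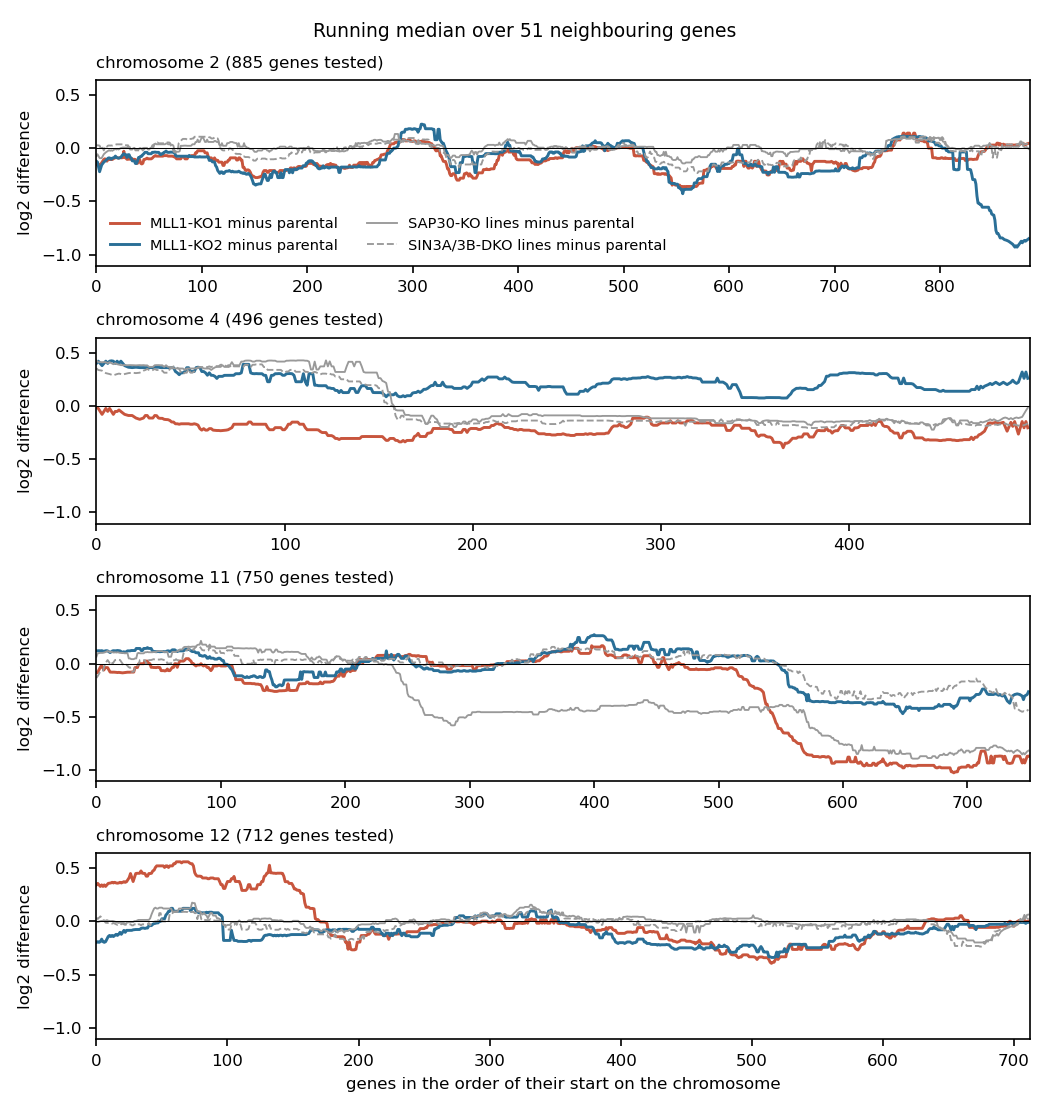
Running median over 51 neighbouring genes of the log2 difference from parental on chromosomes 2, 4, 11, and 12, for MLL1-KO1 (red), MLL1-KO2 (blue), and the means of the SAP30-KO (grey) and SIN3A/3B-DKO (dashed grey) lines, against the order of genes on the chromosome. MLL1-KO2 departs at the end of chromosome 2, MLL1-KO1 at the start of chromosome 12, the lines lie on opposite sides of parental along chromosome 4, and both fall on distal chromosome 11.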

How the data were processed

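RNA-Seq of 14 libraries of MDA-MB-231 cells and their knockout lines was used, grouped by the submitters' labels. The submitters' processing notes name FastQC 0.11.2, TopHat, featureCounts, and hg19, and their settings are not given in the sources used here. The authors deposited 1 value per gene and library under the name RPKM, but each library adds up to the same total, so the deposited values were used as TPM. A fixed total means that a rise of some genes lowers the others and that total RNA cannot be seen. The steps between low values gave back whole reads for 100.0% of genes above 0, within 0.02 reads. Spreadsheet dates stand in place of 28 gene names, which are not named.

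Genes of at least 1 TPM in at least 2 of 14 libraries (13540) were fitted on log2(TPM + 0.5), a scale that understates changes of low genes, by limma (3.58.1, R 4.3.3) on 7 group means with a variance trend. There were 7 residual degrees of freedom and 3.6 from the prior. Genes counted as called had a Benjamini-Hochberg adjusted p under 0.05 and at least 1.5-fold. edgeR was not used because the unit is not counts, and limma's voom on the recovered reads was an alternative. The MLL1-KO comparison, the lists, and the tests were chosen with earlier results of these data known. Named were KMT2A, the genes the study followed by RT-qPCR, the 12 genes with the largest called difference in each direction with at least 5 TPM in the higher line, up to 4 called members a list in each direction and members at its ends, and the 6 largest called in opposite directions against parental. A gene that this rule names is not reported here. GAPDH, HCFC1, MMP14, VEGFC, PDGFC, the neighbours of EMC10, and the genes at the ends of blocks were named after their values were seen. The median difference and counts describe each list, and no set test was run. Folds against a line with 0 reads are bounds at 3 reads per library, other low folds are ratios of summed reads with an interval, and intervals cover counting error only. Positions are from GENCODE 44 on GRCh37, matched by symbol or RefSeq synonym. The test was run on simulated data first. Alternatives were pseudocounts of 0.1 and 1, no filter, quantile and median ratio scaling, a 2-fold and no fold minimum, fewer libraries, the replicate block, leaving out each library, voom, GC and length trends removed, and a running median of neighbours removed, with the same genes and nothing removed added after seeing the data. Counting and plotting used Python 3.11.15 (pandas 2.3.3, numpy 2.4.6, matplotlib 3.10.9, scipy 1.17.1).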

Additional observations from a re-analysis of the deposited data

Results flagged for a closer look

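Genes that the lines moved to opposite sides of parental were singled out, since both their differences from parental and the difference between the lines were called. As MLL1-KO1 minus MLL1-KO2 (log2, limma), the differences were -3.75 for CST7, -3.74 for PLD5, 3.57 for SLC12A7, -2.97 for KRT81, -2.75 for KDR, 2.75 for CDH18, -2.06 for TIE1, -1.85 for NRG2, and -1.57 for IRF7. Against parental, CST7, PLD5, KRT81, KDR, TIE1, NRG2, and IRF7 were lower in MLL1-KO1 and higher in MLL1-KO2, while SLC12A7 and CDH18 were higher in MLL1-KO1 and lower in MLL1-KO2. TIE1 rested on 5 reads in MLL1-KO1 and 105 in MLL1-KO2. KDR lies on chromosome 4, where the lines differed by a median of -0.45, and its difference was larger than that shift. KRT81 and SLC12A7 also stood above parental in the SAP30-KO lines, which were not edited at MLL1.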

How the results depend on the processing

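When each MLL1-KO or parental library was left out in turn, between 884 and 966 genes were lower and between 427 and 458 higher in MLL1-KO1, the KMT2A difference was -0.74 to -0.61, and parental lay between the lines for 38.2% to 40.7% of called genes, against 38.7% with all. The counts moved with the fold minimum, to 260 lower and 168 higher at 2-fold and to 3546 and 2148 with none, and the share with parental between was then 42.5% and 32.0%. It was 36.1% after quantile normalization and 33.7% with the running median of neighbours removed, which left 644 genes lower. KMT2A missed the 1.5-fold minimum at -0.57 after quantile normalization and -0.51 after GC and length removal, and its test at -0.15 with the running median removed. The numbers of the replicates did not pair the libraries, since the deviations of same-numbered libraries correlated by 0.01 on average (-0.07 to 0.08 over 21 pairs of conditions). With the replicate block, 971 genes were lower and 444 higher, the KMT2A difference was -0.67, and the share with parental between was 38.8%. For 169 named genes called, 3115 of 3380 values under these alternatives kept their side of the threshold, 265 lost the call, and 0 reversed. The setting without a fold minimum could not remove a call. Leaving out a parental library or adding the replicate block kept each difference between the lines and changed only its spread. At 18415036 to 23162682 reads a library, genes with fewer than 10 reads in a line are imprecise, and 2 libraries a line limit the rest.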

Other observations

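Counts for the lists not yet described are given beside the 10.4% called over all genes, and some lie near or below it. Of 18 serpin and SPINK genes tested, 2 were lower and 3 higher in MLL1-KO1 (27.8%). SERPINB9, an inhibitor of granzyme B, stood at 29.0 and 30.0 TPM in parental cells, 5.32 and 5.79 TPM in MLL1-KO1, and 1.25 and 2.18 TPM in MLL1-KO2 (1.48 ± 0.15, adjusted p = 2.1e-05 by limma). SERPINI1, neuroserpin, stood at 6.01 and 7.11 TPM, 5.18 and 5.70 TPM, and 11.2 and 11.9 TPM (-1.02 ± 0.13, adjusted p = 0.00011 by limma). Of 13 proteoglycan genes 3 were lower and 1 higher (30.8%), and SPOCK1, a secreted testican, stood at 0.692 and 0.444 TPM, 4.60 and 4.13 TPM, and 10.4 and 8.57 TPM. Of 28 AP-1, EGR, and MYC genes 2 were higher and 0 lower (7.14%), and DUSP1, a phosphatase of MAP kinases, stood at 73.2 and 71.1 TPM, 20.7 and 20.7 TPM, and 11.3 and 13.5 TPM. Of 7 metallothionein list genes 2 were higher and 0 lower (28.6%), namely MT1A and SLC30A1, a zinc transporter. MT1A, a zinc-binding metallothionein, was listed at 0 in both MLL1-KO2 libraries, 3.10 and 3.14 TPM in MLL1-KO1, and 8.43 and 13.3 TPM in parental cells. MT2A, which made up most of the list's summed TPM, went the other way and was not called (-0.37). It stood at 1922 and 2000 TPM in MLL1-KO1 and 2452 and 2621 TPM in MLL1-KO2. Of 27 heat shock genes 1 was lower and 2 higher (11.1%), and HSPA2, a chaperone of germ cells, stood at 2.36 and 2.17 TPM, 0.576 and 0.674 TPM, and 2.24 and 2.01 TPM. Of 7 cancer-testis genes 1 was lower and 1 higher, of 26 p53 target and CDK inhibitor genes 4 were lower and 1 higher, and of 17 SIN3 complex genes 1 was lower (5.88%), SAP30L. Its value of -0.59 lay just past the 1.5-fold minimum, and the call was lost without MLL1-KO1 replicate 1 (-0.58), without MLL1-KO2 replicate 2 (-0.58), with a pseudocount of 1 (-0.58), with voom (-0.58), after median ratio scaling (-0.55), after quantile normalization (-0.50), and after GC and length removal (-0.51).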
